A study of Mus musculus with 4 samples.

Results

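Histone genes encode the proteins around which DNA is wound. They were examined here in long-term haematopoietic stem cells (LT-HSC), marrow cells able to rebuild the blood for long periods after transplantation, and in short-term haematopoietic stem cells (ST-HSC), whose contribution is briefer, on Affymetrix mouse expression arrays. The members were all probe sets annotated with a single gene symbol that began with one of the histone prefixes (Hist1h to Hist4h, H1f, H2ac, H2bc, H3c, H4c, H2af, H2az, H3f), whatever their values. They were 24 of 45101 probe sets on the array and stood for 17 genes. Sorted by gene symbol alone, 13 probe sets (9 genes) were classed as replication-dependent histones and 7 (5 genes) as variant histones. The other 4 (3 genes: H1f6, H1f7 and H1f8) were classed as linker histones of the germ line. Whether each gene of the first class, H2bc21 included, depends on replication was not tested. No single-symbol H4 probe set met the rule. LT-HSC (lineage-negative, cKit+, Sca1+, CD34-, CD135-) and ST-HSC (the same gate but CD34+) had 2 arrays each. All cells came from control mice on a C57BL/6 background without the interferon-inducible Mx-Cre transgene. Each mouse had been given poly(I:C), an inducer of interferon, 7 times. Both LT-HSC arrays and replicate 2 of ST-HSC were from mice aged 7.5 weeks, taken 4 weeks after the final dose. Replicate 3 of ST-HSC was from mice aged 8.5 weeks, taken 3 weeks after it, although the series description gives 4 weeks for every sample. The tissue field of the ST-HSC samples names LT-HSC next to a CD34+ gate, and the titles were followed. Whether the 2 LT-HSC samples were taken from separate animals is not stated, so p-values measure the spread between these arrays, which may be partly technical.

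Replication-dependent histone genes lie in clusters and are switched on during S phase, when newly made DNA has to be packaged. Their main transcripts end in a conserved stem-loop in place of a poly(A) tail, and some of these genes also give polyadenylated transcripts. Variant histones such as H2A.Z and H3.3 are made outside S phase too, from polyadenylated transcripts, and are exchanged into nucleosomes by dedicated chaperones. The labels give polyA RNA as the molecule, and the RNA was amplified in 2 rounds. Which of these transcript forms the probe sets read was not tested. In bulk RNA, fewer cells that express a gene and less of its RNA per cell cannot be told apart.

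Transcripts of other blood cells set some arrays apart. The summed intensity of 12 markers of plasma and B cells was 40520 and 41030 on the LT-HSC arrays and 1831 and 3059 on the ST-HSC arrays, although the gate removed lineage-positive cells. That of 11 granule and neutrophil markers, Mpo, Elane and Ctsg among them, was 4008 and 672 on the LT-HSC arrays. It was 7082 and 60720 on the ST-HSC arrays, highest in replicate 3. The part of these cells in the results was not tested. Cd34, which separated the gates, read 18.3 and 23.5 on the LT-HSC arrays and 841 and 1142 on the ST-HSC arrays, on the side that the titles give. Kit and Flt3 (CD135), gated alike in both groups, were also higher on the ST-HSC arrays. Kit read 397 and 382 against 684 and 907, and Flt3 62.3 and 53.4 against 258 and 134. The summed intensity of 9 stem cell markers was 8350 and 5770 against 11530 and 8372. That of 6 erythroid markers was 2407 and 2941 against 3239 and 7304.

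RefSeq (GRCm38.p6) held a promoter for 15 of the 17 member genes, and it is not shown for H2bc21 and H3c7. The 250 bases before the annotated start are shown for 6 genes. H1f2 and H2ac19 had assigned probe sets higher in LT-HSC, and H2bc22, H2az1 and H2az2 had assigned probe sets higher in ST-HSC. H1f4 is the other somatic replication-dependent linker gene among the members. Capitals mark matches, on either strand, to 5 short motifs known from histone or cell cycle promoters. They were the CCAAT box, the TATAA box, the linker histone element AAACACA, the octamer ATTTGCAT of H2B promoters and the E2F-type site TTTNGCGC. No matches overlapped in the windows shown.
H1f2, chr13:23738557-23738806, plus strand: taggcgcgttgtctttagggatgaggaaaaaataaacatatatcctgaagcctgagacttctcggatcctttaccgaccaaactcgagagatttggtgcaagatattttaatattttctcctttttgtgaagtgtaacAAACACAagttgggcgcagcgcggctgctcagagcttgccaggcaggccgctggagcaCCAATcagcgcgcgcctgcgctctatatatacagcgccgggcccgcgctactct
H1f4, chr13:23622559-23622808, minus strand: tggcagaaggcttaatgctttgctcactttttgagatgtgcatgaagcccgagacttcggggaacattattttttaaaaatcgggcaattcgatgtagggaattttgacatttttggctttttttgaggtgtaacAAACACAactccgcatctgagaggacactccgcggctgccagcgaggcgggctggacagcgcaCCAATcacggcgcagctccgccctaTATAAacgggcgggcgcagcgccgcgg
H2ac19, chr3:96240375-96240624, minus strand: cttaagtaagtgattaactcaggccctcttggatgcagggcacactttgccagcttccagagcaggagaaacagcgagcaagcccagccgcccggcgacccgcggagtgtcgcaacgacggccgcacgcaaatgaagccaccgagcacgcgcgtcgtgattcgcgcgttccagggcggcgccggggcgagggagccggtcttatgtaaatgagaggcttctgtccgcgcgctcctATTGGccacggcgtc
H2bc22, chr13:21787238-21787487, plus strand: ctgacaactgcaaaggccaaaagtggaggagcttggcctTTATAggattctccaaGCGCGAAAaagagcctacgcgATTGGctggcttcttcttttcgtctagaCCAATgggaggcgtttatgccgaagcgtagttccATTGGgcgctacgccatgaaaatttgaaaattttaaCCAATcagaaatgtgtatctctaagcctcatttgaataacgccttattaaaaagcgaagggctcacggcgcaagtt
H2az1, chr3:137864237-137864486, plus strand: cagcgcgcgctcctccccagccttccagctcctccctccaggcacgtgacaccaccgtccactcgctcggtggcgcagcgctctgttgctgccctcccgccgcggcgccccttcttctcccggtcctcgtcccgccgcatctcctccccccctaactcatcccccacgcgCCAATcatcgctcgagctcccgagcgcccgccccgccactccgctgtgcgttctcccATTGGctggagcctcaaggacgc
H2az2, chr11:6444444-6444693, minus strand: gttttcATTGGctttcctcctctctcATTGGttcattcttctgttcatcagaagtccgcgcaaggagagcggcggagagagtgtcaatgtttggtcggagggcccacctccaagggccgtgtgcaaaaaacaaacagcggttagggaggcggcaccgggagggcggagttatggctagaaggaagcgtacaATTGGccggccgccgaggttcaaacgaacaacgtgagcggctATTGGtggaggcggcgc
CCAAT was found in 13 of the 15 member windows, against 33.8% of 32851 windows of all genes, and in each of the 6 windows shown. AAACACA stood at 112 bases before the start of H1f2 and at 115 before that of H1f4, and 6.25% of all windows held it. TATAA was found in 7 member windows (22.8% of all windows), ATTTGCAT in 2 (1.6%) and TTTNGCGC in 1, that of H2bc22 (1.13%). Such matches describe these letters only. CCAAT was present in windows of genes with probe sets higher in LT-HSC and of genes with probe sets higher in ST-HSC. AAACACA was shared by the linker genes H1f2, H1f4 and H1f6, and was also found in the window of H3f3a.

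Differences below are LT-HSC minus ST-HSC on the log2(intensity + 16) scale after quantile normalization, with the moderated standard error (SE) of limma. A probe set passed at an adjusted p under 0.05 (Benjamini-Hochberg over all tested probe sets). Because 16 is added to each intensity, folds of dim probe sets are understated. Of the 24 members 18 lay above the intensity filter and were tested. H2A.Z, both of whose genes passed, and 2 H2B probe sets were higher in ST-HSC, while the linker histone H1f2 and an H2A probe set were higher in LT-HSC. In all, 3 member probe sets were higher in LT-HSC, 6 were higher in ST-HSC, 9 were tested and did not pass, and 6 were not tested. Over all tested probe sets 6.72% were higher in LT-HSC and 5.48% in ST-HSC (12.2% in all). The median difference over the 13 replication-dependent probe sets, dim ones included, was -0.66 and the mean -0.08, with a range from -1.65 to 3.20. Over the 7 variant probe sets the median was -0.80, with a range from -1.79 to 0.89, and over all 45037 probe sets it was -0.03. The medians of both classes thus lay on the same side of 0, and each class held probe sets on either side of it. On normalized values, both arrays of ST-HSC stood above both of LT-HSC in 8 of the 13 replication-dependent and 4 of the 7 variant probe sets (28.5% of all probe sets), and the reverse held in 4 and 1 (23.8% of all probe sets).

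**Figure D1:**
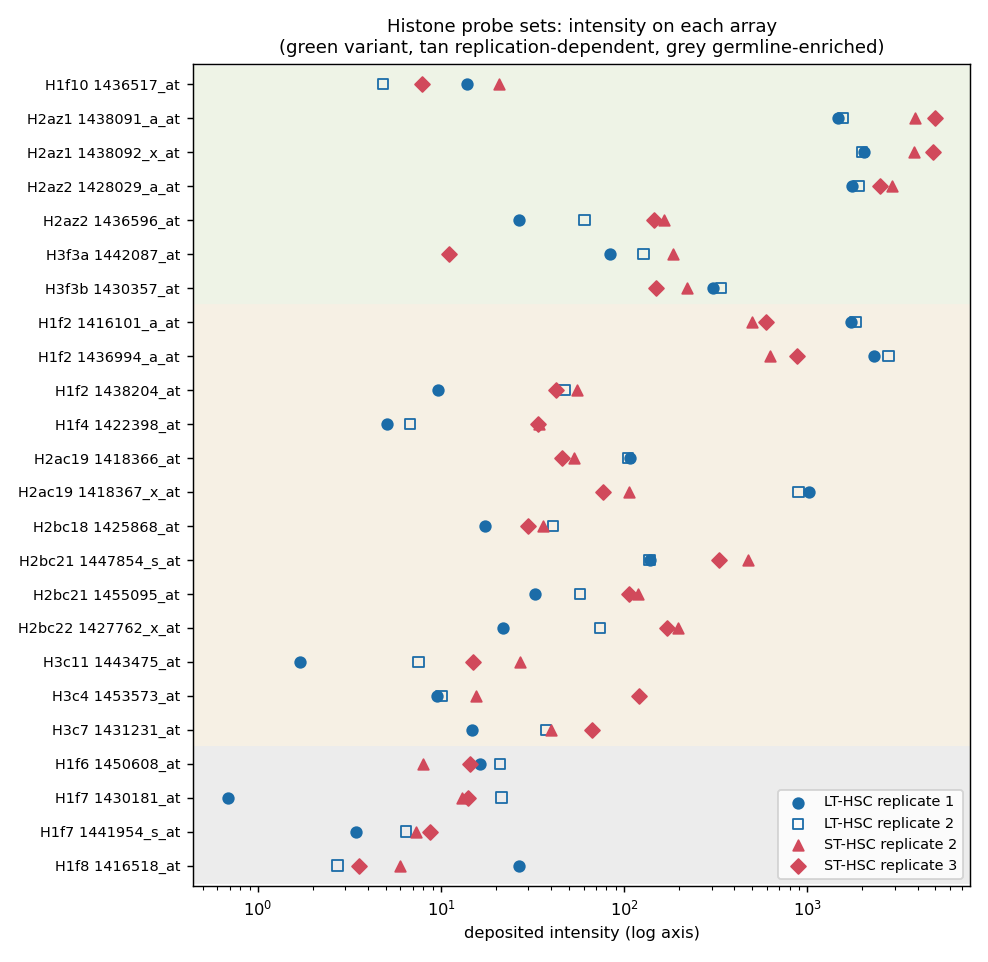
Deposited intensity (log axis) of each of the 24 histone probe sets on the 4 arrays, LT-HSC in blue and ST-HSC in red, 1 symbol per array. The H2az1 probe sets read from 1467 to 2046 in LT-HSC and from 3816 to 4989 in ST-HSC, while H1f2 1436994_a_at read 2327 and 2770 against 625.8 and 875.6; levels of different probe sets are not comparable.

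Among the variants, H2az1 and H2az2 encode the nearly identical proteins H2A.Z.1 and H2A.Z.2, a variant of H2A placed around promoters. H2az1 1438091_a_at read 1467 and 1567 in LT-HSC replicates 1 and 2 and 3876 and 4989 in ST-HSC replicates 2 and 3. After quantile normalization the ST-HSC level was 3.46-fold that of LT-HSC (difference -1.79, SE 0.20, adjusted p = 0.00361 in limma). This probe set also passed with arrays centred on their medians, at -1.42, and without normalization, at -1.53. Its companion 1438092_x_at read 2046 and 1988 against 3816 and 4831 (-1.36, SE 0.19, adjusted p = 0.00748). In both, neither ST-HSC array came down to an LT-HSC array. H2az2 1428029_a_at read 1762 and 1906 against 2886 and 2496, a smaller gap (-0.80, SE 0.18, adjusted p = 0.0337), and 1436596_at read 26.5 and 60.6 against 165 and 146 (-1.46, SE 0.33, adjusted p = 0.0351). All 4 single-gene H2A.Z probe sets were thus higher in ST-HSC. The H2az2 1428029_a_at call was lost when each array was centred on its median (-0.44, adjusted p = 0.398) and without normalization (-0.55, adjusted p = 0.109), and also with no intensity trend in the spread (adjusted p = 0.114) and with no filter (adjusted p = 0.0511), so it was kept under 4 of 8 other settings. That of H2az1 1438092_x_at was lost with median centring (-0.98, adjusted p = 0.0688). Of 2 further probe sets assigned both to H2A.Z and to another locus, 1 was called toward ST-HSC (-1.77, SE 0.24, adjusted p = 0.00729) and the other did not pass (-0.57, SE 0.22, adjusted p = 0.138).

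H3f3a and H3f3b encode the same protein, H3.3, the form of H3 laid down outside S phase. H3f3b 1430357_at read 306 and 337 on the LT-HSC arrays and 221 and 149 on the ST-HSC arrays (0.84, SE 0.30, adjusted p = 0.116). H3f3a 1442087_at read 83.2 and 128 on the LT-HSC arrays and 184 and 11.1 on the ST-HSC arrays (0.89, SE 0.83, adjusted p = 0.508). Neither passed. The ST-HSC arrays of H3f3a enclosed both LT-HSC arrays, and its difference was 2.26 when ST-HSC replicate 2 was left out and -0.53 when replicate 3 was. A further 5 probe sets were assigned to H3.3 copies at several loci, and none of these 5 passed in limma (0 called, 3 at an unadjusted p under 0.05), with differences from -1.26 to 0.28. The member that encodes a somatic linker variant, H1f10 (H1X), read 13.8 and 4.81 against 20.6 and 7.88 and was too dim to be tested.

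Replication-dependent histones went in both directions. H1f2 encodes H1.2, one of the somatic linker histones that bind the DNA between nucleosomes. H1f2 1416101_a_at read 1735 and 1837 on the LT-HSC arrays and 500.1 and 594 on the ST-HSC arrays (1.56, SE 0.22, adjusted p = 0.00845 in limma). H1f2 1436994_a_at read 2327 and 2770 against 626 and 876, a 2.98-fold difference (1.58, SE 0.24, adjusted p = 0.0108). Both LT-HSC arrays stood well above both ST-HSC arrays in each. The third H1f2 probe set, 1438204_at, was dim, at 9.57 and 47.4 against 54.9 and 42.6, and did not pass (-0.56, SE 0.40, adjusted p = 0.388). H1f4, which encodes the linker histone H1.4, read 5.06 and 6.77 against 34.4 and 33.8. Its difference of -1.07 (SE 0.30) missed the threshold (adjusted p = 0.0623), and at 17.4 its mean level lay just above the filter at an intensity of 16.6. The germ-line H1f6, at 14.5, lay just below it.

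H2ac19 encodes a core histone H2A. Its probe set 1418367_x_at showed the widest difference of the 24, with 1020 and 893 on the LT-HSC arrays and 106 and 77.0 on the ST-HSC arrays. The LT-HSC level was 9.19-fold that of ST-HSC (3.20, SE 0.28, adjusted p = 0.00151). H2ac19 1418366_at, assigned to the same gene, read 107 and 105 against 53.1 and 45.5 and lay in the same direction without passing (1.03, SE 0.30, adjusted p = 0.073). The suffix x marks probe sets some of whose probes can match other transcripts, and H2A genes are near-identical copies, so the gene behind the larger value is uncertain. A probe set assigned to 2 H2A copies at once was below the filter, at 5.91 and 9.72 on the LT-HSC arrays and 26.4 and 24.7 on the ST-HSC arrays.

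The called H2B probe sets assigned to a single gene lay the other way. Both carry a suffix, s or x, of probe sets whose probes can match other transcripts, so the genes behind them are uncertain too. H2bc21 1447854_s_at read 139 and 137 on the LT-HSC arrays and 474 and 331 on the ST-HSC arrays (-1.38, SE 0.32, adjusted p = 0.0376). Its other probe set, 1455095_at, read 32.6 and 57.5 against 119 and 107 and did not pass (-0.97, SE 0.30, adjusted p = 0.0836). H2bc22 1427762_x_at read 21.9 and 73.6 against 197 and 172 (-1.65, SE 0.39, adjusted p = 0.0405). The arrays of the groups did not overlap in any of these 3 probe sets, with ST-HSC above LT-HSC, as in 28.5% of all probe sets. H2bc18 read 17.3 and 40.9 against 36.2 and 29.9 and overlapped (-0.06, SE 0.32, adjusted p = 0.919). H2bc21, H2ac19 and H2bc18 are neighbours in one histone cluster on chromosome 3. H2bc21 had a probe set higher in ST-HSC, H2ac19 had a probe set higher in LT-HSC, and for H2bc18 no difference was detectable.

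The single-gene H3 probe sets were dim. H3c4 read 9.55 and 10.04 on the LT-HSC arrays and 15.5 and 120 on the ST-HSC arrays (-1.27, SE 0.66, adjusted p = 0.243), and replicate 3 of ST-HSC stood far above the other arrays. H3c7 read 14.8 and 37.3 against 40.1 and 66.7 (-0.66, SE 0.37, adjusted p = 0.28), and H3c11, at 1.70 and 7.52 against 27.0 and 14.9, was not tested. In all 3, both ST-HSC arrays stood above both LT-HSC arrays, an order found in 28.5% of all probe sets. None passed (limma; 0 called and 0 at an unadjusted p under 0.05 of the 2 tested). The 4 germ-line probe sets read between 0.687 and 26.6 on every array and were not tested. H1f6 and H1f7 are linker histones of the testis and H1f8 is that of the oocyte.

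**Figure D2:**
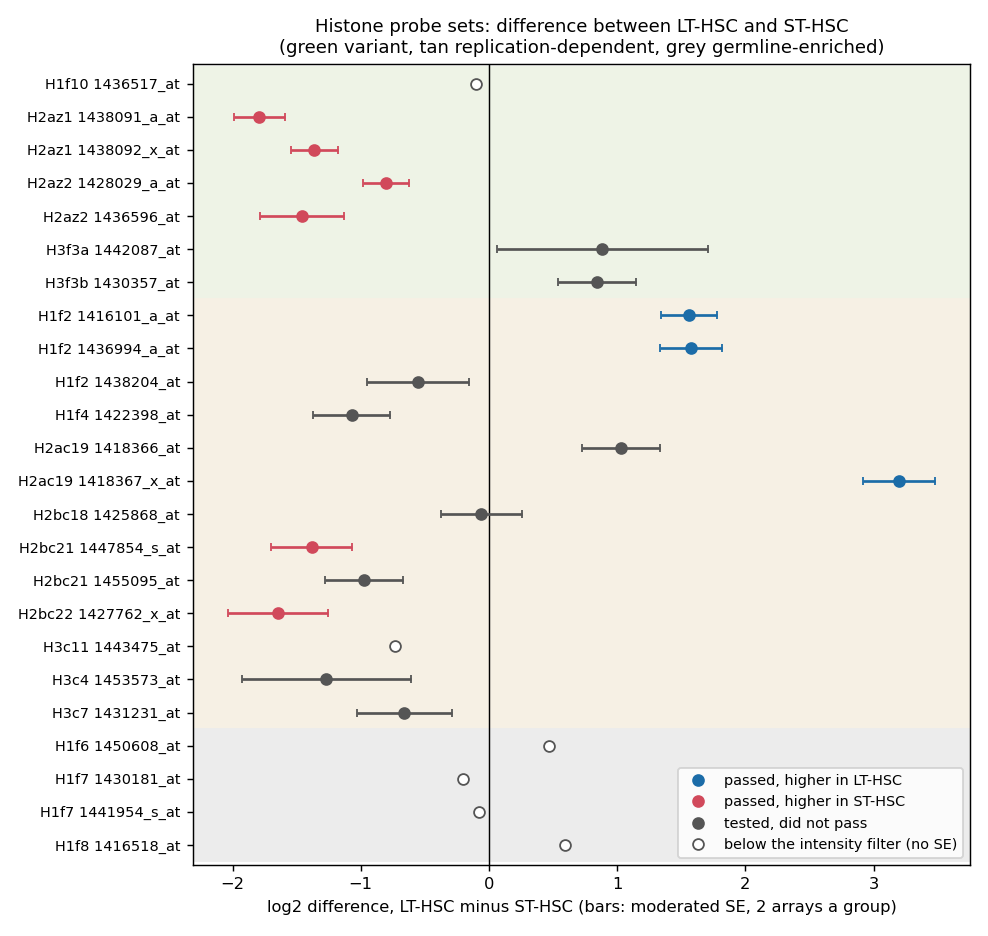
Log2 difference (LT-HSC minus ST-HSC) of each histone probe set, with the moderated SE for the 18 tested; open circles are the 6 below the intensity filter. The 4 H2A.Z probe sets (-1.79 to -0.80) lie left of 0, and H1f2 (1.56 and 1.58) and H2ac19 (3.20) lie right of it.

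A further 17 probe sets were assigned to several replication-dependent genes at once and so name no gene. Of 5 H4 probe sets, 3 of them tested, 1 was higher in ST-HSC, at 91.2 and 162 in LT-HSC against 373 and 356 (-1.36, SE 0.32, adjusted p = 0.039). Another H4 probe set read 580 and 565 against 433 and 423 and did not pass (0.39, SE 0.25, adjusted p = 0.342). Of 5 H2B probe sets, 3 of them tested, 1 was called toward ST-HSC (-1.42, SE 0.33, adjusted p = 0.039) and 1 toward LT-HSC (1.53, SE 0.32, adjusted p = 0.0298). Over all tested probe sets 5.48% were called toward ST-HSC and 6.72% toward LT-HSC. These shared probe sets also lay on either side of 0. Of the 5 H3 probe sets and the 1 H2A probe set tested, 0 passed in limma, with 1 and 0 at an unadjusted p under 0.05.

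Several histone genes, most of them variants, now carry symbols outside the rule, although an older symbol in the RefSeq table would have met it. They were added after their symbols were seen and are no members. Of their 11 probe sets 3 were higher in ST-HSC (5.48% of all tested probe sets), 0 in LT-HSC (6.72%), 4 did not pass and 4 were not tested. Macroh2a1, which encodes the large variant macroH2A1, read 1645 and 1710 in LT-HSC against 4455 and 5041 (-1.76, SE 0.17, adjusted p = 0.00214). H2ax, whose protein is phosphorylated at DNA breaks, read 369.6 and 406.3 against 1586 and 1777 (-2.18, SE 0.22, adjusted p = 0.00268). H2aj passed on 1 of its 3 probe sets (-1.32, SE 0.32, adjusted p = 0.0419), while 1424771_at read 1353 and 1551 against 1372 and 1592, overlapping as deposited (-0.24, SE 0.20, adjusted p = 0.465). H2aw, a replication-dependent H2A gene, did not pass on either probe set (0.17, SE 0.29, adjusted p = 0.73, and 0.60, SE 0.30, adjusted p = 0.234). Macroh2a1 and H2ax thus lay on the side of H2A.Z, and the H3.3 probe sets did not pass on either side.

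The related genes were counted on the probe set of highest mean of each. Over all tested probe sets 5.48% were higher in ST-HSC and 6.72% in LT-HSC. In the fit with 1 probe set per gene these shares were 8.11% and 9.02%. Of 20 genes of histone mRNA transcription and processing 5 were higher in ST-HSC, 0 in LT-HSC and 15 did not pass (median -0.75). Slbp, the protein that binds the stem-loop of replication-dependent transcripts, read 395 and 497 on the LT-HSC arrays and 855 and 1421 on the ST-HSC arrays (-1.37, SE 0.30, adjusted p = 0.0347). Its probe set 1430058_at read 107 and 113 against 127 and 49.1, overlapped and did not pass (0.51, SE 0.39, adjusted p = 0.42 in limma). Slbp 1437803_at was too dim to be tested. Snrpf, Snrpg, Snrpe and Snrpb, ring proteins shared by the U7 particle that cuts these transcripts and by the spliceosome, differed by -1.98, -0.75, -0.76 and -0.91. Npat, the activator of histone clusters in S phase, did not pass (-0.87, SE 0.29, adjusted p = 0.102), nor did the U7 protein Lsm11 (0.75, SE 0.32, adjusted p = 0.168). Of 13 measured chaperones and import factors of replication-coupled assembly 6 were higher in ST-HSC, 0 in LT-HSC and 7 did not pass (median -1.10). Nap1l1 was at -1.10 (SE 0.18, adjusted p = 0.0129), Mms22l at -1.52 (adjusted p = 0.02), Mcm2 at -1.29 (adjusted p = 0.0259) and Chaf1b, a subunit of the CAF-1 assembly factor, at -1.68 (adjusted p = 0.0294). Chaf1b read 195 and 121 on the LT-HSC arrays and 476 and 605 on the ST-HSC arrays. Supt16, a subunit of the histone chaperone FACT, had probe sets that disagreed: 1419741_at, the one counted, did not pass (-0.64, SE 0.26, adjusted p = 0.156), while 1449578_at read 193 and 205 on the LT-HSC arrays and 36.8 and 18.5 on the ST-HSC arrays and was higher in LT-HSC (2.46, SE 0.33, adjusted p = 0.00744). Rbbp7 and Rbbp4, histone-binding subunits shared with chromatin-modifying complexes, were at -0.62 and -0.68.

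Of 20 measured genes of variant exchange (chaperones and remodelling subunits, with the centromeric histone Cenpa) 6 were higher in ST-HSC, 0 in LT-HSC and 14 did not pass (median -0.55). For this list and the replication list below, 5.48% of all tested probe sets were higher in ST-HSC and 6.72% in LT-HSC. With 1 probe set per gene these shares were 8.11% and 9.02%. Dek, a chromatin protein and H3.3 chaperone, read 849 and 828 on the LT-HSC arrays and 2667 and 3040 on the ST-HSC arrays (-1.96, SE 0.20, adjusted p = 0.00244). Ruvbl2 and Ruvbl1, ATPases of the complexes that insert H2A.Z, were at -1.77 and -1.43, and Actl6a, an actin-related subunit, was at -1.31. Hira and Cabin1, which belong to the same H3.3 chaperone complex, were at -1.35 and -1.36. That Hira probe set was dim, at 10.9 and 15.5 on the LT-HSC arrays against 59.9 and 69.5. The genes of this list had 35 other probe sets, those of Hira, Cabin1 and Actl6a included. Of these 24 were tested, and 0 were called in either direction. Daxx, the other H3.3 chaperone, did not differ detectably (0.12, SE 0.28, adjusted p = 0.81), nor did the H2A.Z remodellers Srcap (-0.55, SE 0.34, adjusted p = 0.315) and Ep400 (0.14, SE 0.24, adjusted p = 0.739). Cenpa read 218 and 234 against 471 and 1602 and did not pass (-1.89, SE 0.54, adjusted p = 0.0674). Of 24 genes of DNA replication 18 were higher in ST-HSC, 1 (Ccne1, cyclin E1, at 2.21) in LT-HSC and 5 did not pass (median -1.82). The counted Ccne1 probe set, 1441910_x_at, carries the suffix x. The other Ccne1 probe set, 1416492_at, had overlapping arrays and did not pass (-0.62, SE 0.68, adjusted p = 0.577 in limma). Mcm7, Mcm6, Lig1, Rrm1, Mcm3 and Mcm4 had the smallest p, with differences from -2.34 to -1.90. The H1f2 and H2ac19 probe sets that passed thus had the opposite sign to the 18 replication genes called higher in ST-HSC. Their sign was that of the counted Ccne1 probe set but not of the other, and this contrast between genes was not tested.

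**Figure D3:**
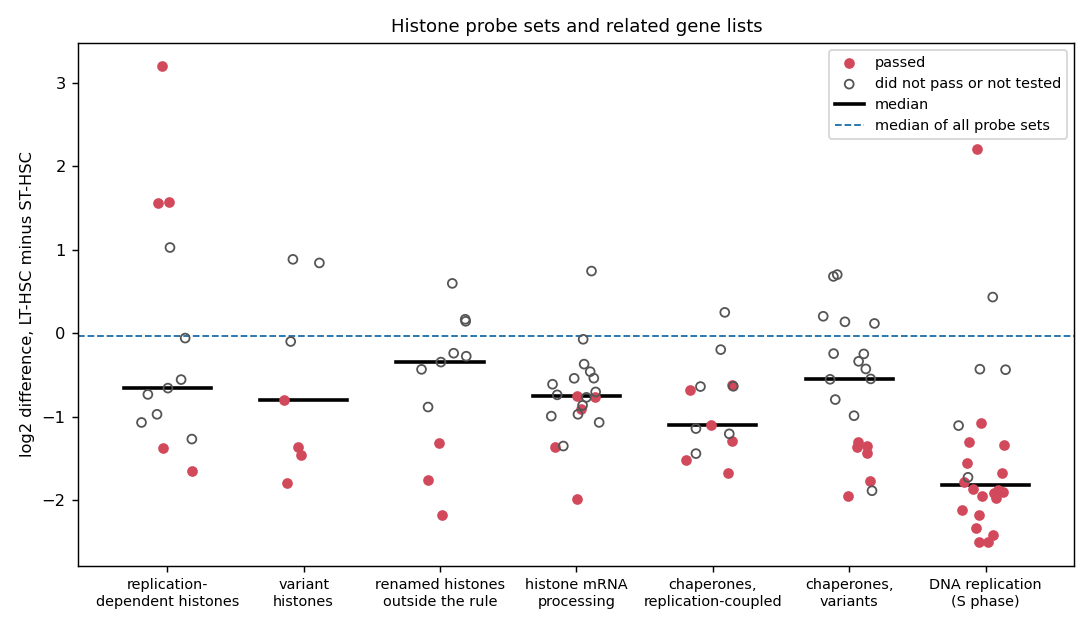
Log2 difference (LT-HSC minus ST-HSC) of each histone probe set, of the renamed histone probe sets and of the genes of 4 related lists (1 probe set per gene), with the median of each group as a bar. The replication list (median -1.82) and the chaperone lists (-1.10 and -0.55) lie below the dashed median of all probe sets (-0.03); the replication-dependent histones spread from -1.65 to 3.20.

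The markers of other cells moved with the groups as well. Of 12 measured markers of plasma and B cells, 10 passed as higher in LT-HSC (6.72% of all tested probe sets). None of the 12 had a difference below 0 (median 4.02). None of the 12 was at 0 on any array, and Pax5 and Ebf1 did not pass. The arrays with high H1f2 and H2ac19 were thus also those with high plasma and B cell markers, and no fit without that difference could be made, since it separates the groups on every array. Of the 11 granule and neutrophil markers, none at 0 on any array, 2 (Mpo and Ctsg) were higher in ST-HSC (5.48% of all tested probe sets) and 9 did not pass. ST-HSC replicate 3, where their sum was highest, was also the array of highest H2az1 and H3c4. With that array left out, the difference of H2az1 1438091_a_at was -1.63, and 3 members were called higher in LT-HSC and 6 in ST-HSC, where 10.7% and 11.5% of all tested probe sets were called. These values rest on the remaining ST-HSC array, whose neutrophil sum was also above those of the LT-HSC arrays. Mpo gave 2876 of its sum of 7082, against 133 and 112 on the LT-HSC arrays, and Ctsg gave 638, against 30.7 and 29.9. Whether Mpo and Ctsg came from neutrophils or from the sorted stem cells themselves was not tested. As deposited, Camp, Ngp, Ltf and S100a9 on it were below LT-HSC replicate 1, and the other markers were above. The part of these cells was not tested.

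Leaving out either LT-HSC array ended the calls, apart from H2ac19 1418367_x_at without replicate 2, while the directions of the 9 called probe sets held with any array left out. In these fits the lone array of a group is assumed to vary like the arrays of the other group. Without LT-HSC replicate 1 none of the 9 calls remained (limma; 0 higher in ST-HSC and 0 in LT-HSC, with 5 and 3 at an unadjusted p under 0.05). Without LT-HSC replicate 2 that of H2ac19 1418367_x_at alone remained (0 in ST-HSC, with 7 at an unadjusted p under 0.05). Then only 415 or 426 of all probe sets passed, against 3296 with all arrays, of which 13 and 25 were higher in ST-HSC, so the background fell too. Among the 9, the difference closest to 0 with an array left out was -0.70, for H2az2 1428029_a_at. H2az1 1438091_a_at ranged from -1.98 to -1.63, H1f2 1416101_a_at from 1.48 to 1.67 and H2ac19 1418367_x_at from 3.03 to 3.39. H2bc22 1427762_x_at was the least steady, from -2.15 without LT-HSC replicate 2 to -1.15 without LT-HSC replicate 1. Without ST-HSC replicate 2 there were 6 member probe sets higher in LT-HSC and 7 in ST-HSC, among 8774 called in all.

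**Figure D4:**
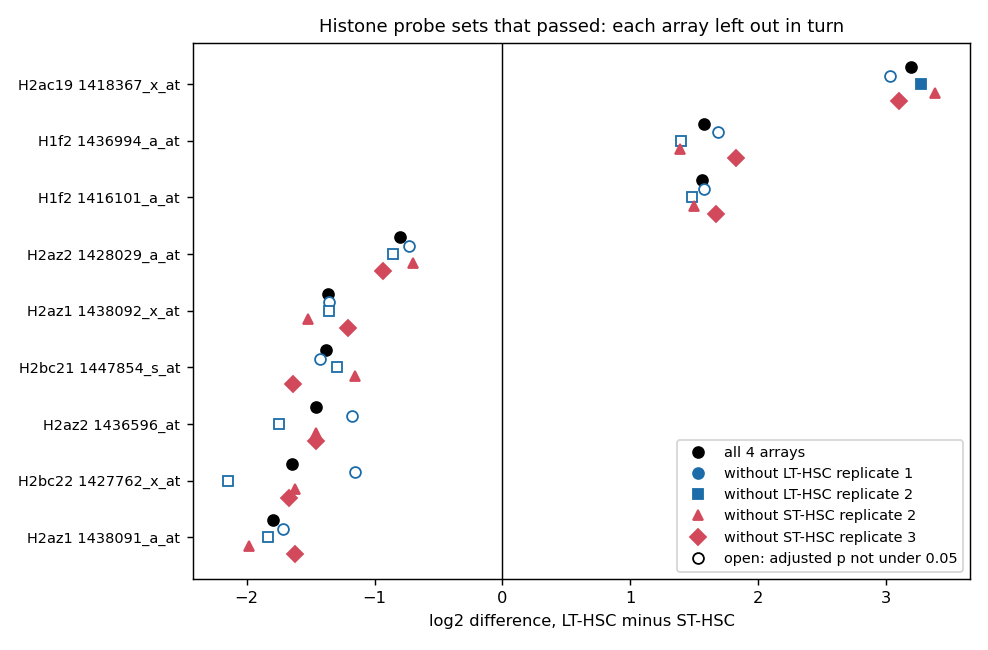
Log2 difference (LT-HSC minus ST-HSC) of the 9 histone probe sets that passed, with all 4 arrays and with each array left out in turn; open symbols did not pass. Each probe set stays on its side of 0, and symbols are open almost throughout when an LT-HSC array is left out (0 and 1 of the 9 passed).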

How the data were processed

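Per the labels' protocols, RNA of sorted mouse marrow cells went through 2 rounds of amplification before biotin labelling. The authors deposited a linear intensity for each probe set on each of 4 arrays. How these were summarised and scaled is not given in the sources used here. Array medians of the deposited values lay between 19.1 and 28.3 and spanned 0.33 on the log2(intensity + 16) scale, so the 45037 non-control probe sets were quantile normalized (64 controls were left out). Probe sets with a mean above the 40th percentile (27022) were tested with limma 3.58.1 in R 4.3.3 (lmFit, eBayes with an intensity trend, 2 residual and 4.84 prior degrees of freedom), Benjamini-Hochberg adjusted. With 2 arrays against 2 an exact permutation test cannot go below p = 0.33, so limma alone was used. The number of arrays limits the precision. The platform annotation gave 34958 probe sets 1 symbol, 932 several and 9160 none; all 24 members matched RefSeq by gene identifier. The related lists used each gene's probe set of highest mean.

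Given in full were members that passed, the probe set of highest mean of each variant gene and up to 3 per replication-dependent family; of each related list, up to 6 genes of smallest p and some that did not pass, the latter chosen after their values were seen. Members and lists were chosen with earlier results of these data known. The fit was tested on simulated data, where it recovered none of the changes when few probe sets changed and missed most of the smaller changes otherwise, so a probe set that did not pass is not shown to be equal. An allele that all the mice shared is not reported here. Alternatives were other normalizations, pseudocounts, filters and spread models, 1 probe set per gene, and each array left out.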

Additional observations from a re-analysis of the deposited data

How the results depend on the processing

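With 2 arrays a group, depth in the sense of read counts does not apply, and dim probe sets near the filter are the least reliable. The count of 6 histone probe sets higher in ST-HSC was 3 with no filter on dim probe sets, where both H2az2 and the H2bc22 probe sets had adjusted p from 0.0511 to 0.0548, and 5 or 6 under the other normalizations, pseudocounts, spread model and filter at the 60th percentile. The count of 3 in LT-HSC was 3 under all of these. With 1 probe set per gene 4 and 2 passed. Of all tested probe sets, 5.48% were higher in ST-HSC and 6.72% in LT-HSC in the main fit. These shares were 2.22% and 3.3% with no filter and 8.13% and 9.12% with the filter at the 60th percentile. With 1 probe set per gene they were 8.11% and 9.02%, so the background moved too. With an array left out, the ST-HSC count ranged from 0 to 7, the LT-HSC count from 0 to 6 and the count over all probe sets (3296) from 415 to 8774. The variant median of -0.80 became -0.44 with arrays centred on their medians and -0.55 with no normalization, and ranged from -0.94 to -0.70 with an array left out. The replication-dependent median of -0.66 became -0.93 with a pseudocount of 1 and -0.27 with 64, and ranged from -0.90 to -0.31. The reversed value was that of H3f3a, -0.53 without ST-HSC replicate 3. Among the named probe sets under these alternatives, 153 values kept direction and side of the threshold, 24 fell short of it and 4 newly passed, among them H3f3a at 2.26 without ST-HSC replicate 2. Causes were not tested. No paired analysis was possible because the groups share only replicate number 2.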
